A study of Homo sapiens with 6 samples.

Results

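The 30 genes described here encode the enzymes that build cholesterol and fatty acids, together with 4 genes that control this synthesis or carry sterols inside the cell. They were chosen by name, and all 30 were found by their Ensembl identifiers in GENCODE release 44 for GRCh38, among 60357 of the 60676 listed genes that have an entry there. By role, 7 encode steps from acetyl-CoA through mevalonate to farnesyl diphosphate, 11 encode steps from squalene synthesis to cholesterol, 4 are regulators and a sterol carrier (INSIG1, SREBF1, SREBF2 and STARD4), and 8 act in fatty acid synthesis. ACAT2 stands here for the cytosolic thiolase of the mevalonate route, not for the sterol acyltransferase that has been known by the same name.

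HT29, an established human colorectal adenocarcinoma line, was grown for 48 h without histidine (Hdepl), without tryptophan (Wdepl) or with neither amino acid withheld (untreated), and 2 libraries of each condition were sequenced from polyadenylated RNA. Medium lacking histidine had an RPMI base and medium lacking tryptophan a DMEM F-12 base, both with dialyzed serum. The base and the serum given to the untreated cells of this experiment are not named in the sources used here. Serum carries cholesterol and fatty acids and the base media differ in many components, so the loss of an amino acid and a change of base medium or serum cannot be told apart in any comparison with untreated cells. Between the depletions the amino acid and the base medium cannot be told apart.

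Cholesterol is made from acetyl-CoA by a long chain of enzymes that passes through mevalonate, the isoprenoid diphosphates, squalene and lanosterol. The chain is controlled by the transcription factors SREBP-1 and SREBP-2, encoded by SREBF1 and SREBF2, which are held in the endoplasmic reticulum while sterols are plentiful and are cut free when sterols run short. INSIG1 encodes one of the proteins that hold them back, and it is itself a target of these factors, as are most enzymes of the chain. SREBP-2 acts mainly on cholesterol genes and SREBP-1 mainly on fatty acid genes.

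The 6 libraries held between 46390819 and 64388876 reads. Replicates differed by more than counting noise, with a chi-square per degree of freedom of 8.77, 4.03 and 1.85 in the untreated, histidine-depleted and tryptophan-depleted pairs. The labels do not say that replicates were separate cultures, so the p-values measure the spread between these libraries only, which may be technical. Of 10 markers of colon epithelium all had reads, with 392738 to 458153 reads in all in untreated cells, 544629 to 581871 without histidine and 571652 to 662535 without tryptophan, sums not scaled for depth to which KRT8 gives much. On normalized counts 4 of the 10 were called higher and 6 lower without histidine (median log2 fold change -0.32), with CEACAM5 6.09-fold, LGALS4 2.96-fold and CDX2 2.59-fold lower, CDX1 at 0 reads in both libraries, and KRT20 3.33-fold and KRT8 1.72-fold higher. Without tryptophan 5 were higher and 2 lower (median 0.24), with CEACAM5 15.1-fold and KRT20 5.22-fold higher. CEACAM5 thus moved in opposite directions in the depletions. CDX1 had 20 and 19 reads in untreated cells, 0 and 0 without histidine and 5 and 3 without tryptophan. Its mean reached the minimum of 10 described below only through its untreated reads. It is counted among the lower markers and in the medians, but its calls are no test of its change. Of 4 leukocyte markers, TPSAB1 was at 0 in every library and PTPRC at 2 reads at most. The leukocyte sum, nearly all from CD14, was 95 to 123 reads in untreated cells, 57 to 63 without histidine and 358 to 402 without tryptophan. Markers of fibroblasts, endothelium and liver summed to between 13 and 75 reads in each library. The part of any of these differences in the results was not tested.

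The 30 genes took 0.463% and 0.459% of all reads in untreated cells, 0.474% and 0.481% without histidine and 0.493% and 0.487% without tryptophan. The summed share was thus slightly higher in all 4 depleted libraries than in the untreated ones. The 18 cholesterol enzymes took 0.150% and 0.146% of reads in untreated cells, 0.146% and 0.145% without histidine and 0.113% and 0.111% without tryptophan, so that both tryptophan-depleted libraries lay below all others. The fatty acid genes took 0.255% and 0.256%, 0.242% and 0.248%, and 0.332% and 0.329% in the same order, with the tryptophan-depleted libraries above all others. SCD alone makes the rise without tryptophan. Without SCD the other fatty acid genes took 0.111% and 0.112% of reads in untreated cells, 0.107% and 0.108% without histidine and 0.0980% and 0.0982% without tryptophan, and the other 29 genes together took 0.318% and 0.315%, 0.339% and 0.340%, and 0.259% and 0.256%.

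Levels of different genes were compared as normalized counts per kilobase of exon. The exon bases are those of all annotated transcripts of a gene together, for example 9018 for MVK and 1002 for PMVK. The order of genes therefore depends on the annotation as well. Of the exon bases of CYP51A1, 68.2% are shared with other genes on its strand, and the part of this in its place was not tested. SCD, the desaturase that makes monounsaturated fatty acids, had the highest level in every condition, with a mean of 14164 per kilobase in untreated cells, 15355 without histidine and 24103 without tryptophan. SQLE and ACLY followed in all 3 conditions, with untreated means of 4247 and 3744 per kilobase. At the lower end stood CYP51A1, FADS1 and FADS2, with 46.6, 8.25 and 2.30 per kilobase in untreated cells, and these were the lowest 3 in each condition. Between these ends the order changed with the medium. INSIG1 was in place 15 in untreated cells, place 6 without histidine and place 12 without tryptophan. ACSS2 went from place 25 in untreated cells to 22 without histidine and 13 without tryptophan, and ACAT2 from place 17 to 27 and 25. In untreated cells several neighbours in the order did not differ beyond their spread, such as PMVK, DHCR7 and FASN with means of 1474, 1439 and 1397 per kilobase, or ACAT2 and MSMO1 with 595 and 593.

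**Figure D1:**
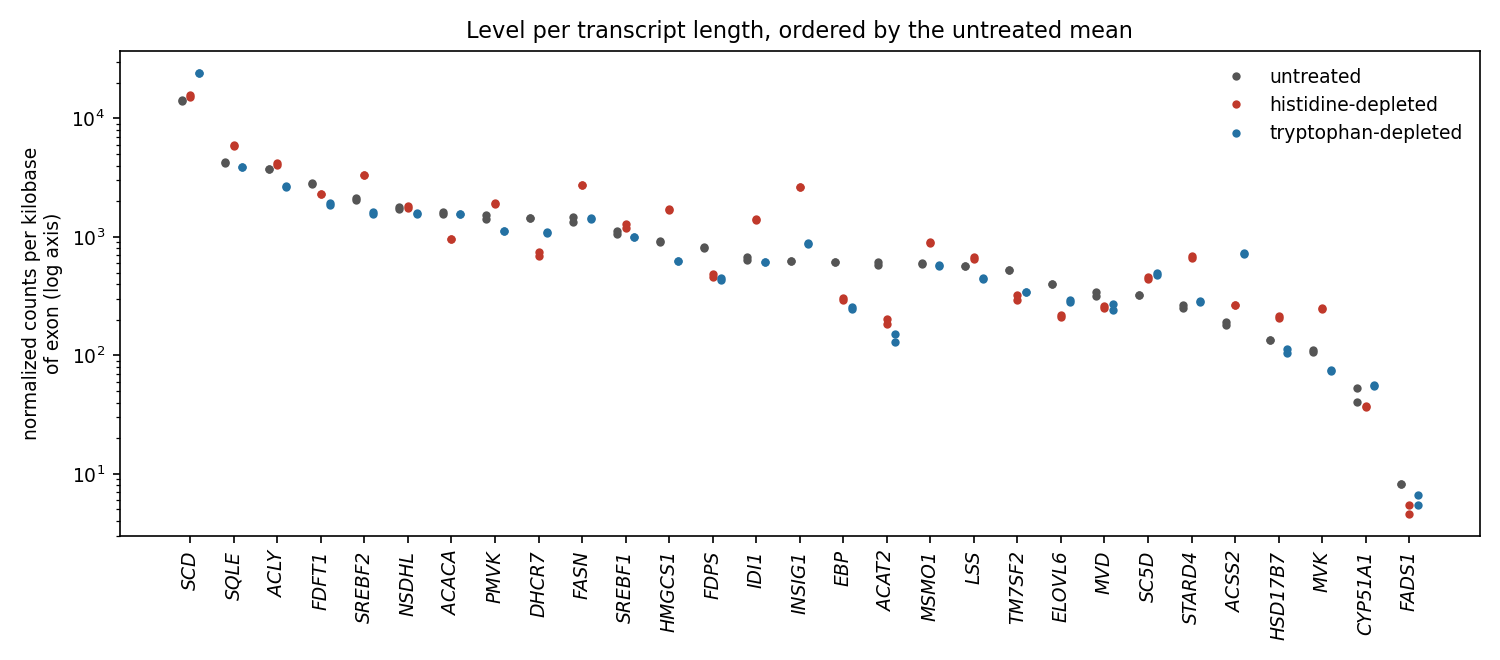
Level of each gene in each library, as jointly normalized counts per kilobase of exon on a log axis, in the order of the untreated mean; each point is 1 of the 2 libraries of a condition, and FADS2, at or near 0 reads after both depletions, is not drawn. SCD stands highest in all 6 libraries and FADS1 lowest among the genes drawn, while ACSS2 and INSIG1 spread widely by condition.

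Normalized counts are reads divided by a size factor for the depth of each library. The values given per library below were scaled over all 6 libraries together, while each fold change against untreated cells comes from the deposited table of that depletion, which the authors had scaled on its own. Differences were tested with limma, a linear model fitted across all genes, on log2 values taken after adding 1 to each normalized count. With so few libraries, limma takes the spread of a gene mostly from all genes tested, to an extent set anew in each comparison. The sizes of p-values from different comparisons can therefore not be compared. Genes whose mean was under 10 were left out. FADS2 passed this filter only through its untreated reads, and the counts of calls against untreated cells include it. A fold change is given with its standard error after the sign ±, and a gene was called higher or lower at an adjusted p under 0.05. In bulk RNA, fewer cells that express a gene and less of its RNA per cell cannot be told apart.

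After histidine depletion, 28 of the 30 genes passed the test, 16 of them higher and 12 lower than in untreated cells. Of all 18288 genes tested, 77.3% were called, 39.1% higher and 38.2% lower, so most genes differed between these libraries and a call alone says little about a lipid gene. The median log2 fold change of the 30 genes was 0.17, against 0.010 over all tested genes, but it turned to -0.058 under quantile normalization (all tested genes -0.016) and to -0.023 under scaling to total reads (all tested genes -0.18), so its direction depends on the scaling. All 4 genes of regulation and sterol transport were higher, SREBF1 with a sign that turned with the scaling, and their median log2 fold change was 1.03. The mevalonate steps were split into 4 higher and 3 lower (median 0.39), and the steps from squalene to cholesterol into 5 higher and 5 lower with NSDHL not called (median 0.024). Of the fatty acid genes 3 were higher and 4 lower (median -0.29), with SCD not called. With an added limit of 1 on the absolute log2 fold change, 4 genes were higher and 3 lower. FADS2 is among the 3, having passed the filter only through its untreated reads. Of all tested genes 16.4% and 16.1% met that limit. The values of the groups did not overlap for 29 of the 30 genes, against 88.1% of all tested genes. The smallest calls depend on the scaling. SREBF1 and ACLY were among the 16 higher genes, but their fold changes took the opposite sign under quantile normalization and under scaling to total reads, and LSS was not called under either.

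After tryptophan depletion, 25 of the 30 genes passed the test, and here 21 were lower and only INSIG1, SC5D, SCD and ACSS2 higher. Over the 17960 tested genes, 70.8% were called, with 36.1% higher and 34.8% lower. The median log2 fold change of the 30 genes was -0.37, against 0.013 over all tested genes. All 7 mevalonate steps (median -0.55) and 8 of the 11 steps from squalene to cholesterol (median -0.32) were lower, which makes 15 of the 18 cholesterol enzymes, with SC5D higher and CYP51A1 and MSMO1 not called. Among regulators INSIG1 was higher, SREBF1 and SREBF2 were lower and STARD4 was not called. Of the fatty acid genes 2 were higher and 4 lower (median -0.26). With the limit of 1 on the absolute log2 fold change, ACSS2 was higher and ACAT2, EBP and FADS2 were lower. FADS2 had passed the filter only through its untreated reads. Of all tested genes 10.0% and 10.4% met that limit. The groups did not overlap for 29 genes, against 84.1% of all tested genes. Without untreated replicate 2, 7 genes in place of 4 were called higher after tryptophan depletion, the added ones being CYP51A1, STARD4 and FASN.

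Set side by side, the calls of the depletions fell into a few patterns. In 10 genes (HMGCS1, MVK, PMVK, IDI1, SQLE, LSS, HSD17B7, SREBF1, SREBF2 and ACLY) the count was higher without histidine and lower without tryptophan, where 8.55% of the 17470 genes tested in both comparisons showed that pattern. For 5 of them (HMGCS1, MVK, PMVK, HSD17B7 and SREBF2) both calls held in every alternative run other than the limit on fold change. SREBF1 and ACLY turn sign without histidine with the scaling, LSS loses its call there, and IDI1 and SQLE have small falls without tryptophan whose calls were lost in some alternatives. Another 10 genes (ACAT2, MVD, FDPS, FDFT1, TM7SF2, EBP, DHCR7, ELOVL6, FADS1 and FADS2) were lower in both, against 21.5% of those genes, and 3 (SC5D, INSIG1 and ACSS2) were higher in both, against 19.6%. FADS2 is counted here but passed the filter only through its untreated reads, and the call of FADS1 without tryptophan was lost in some alternatives. The untreated libraries are shared by both comparisons, so the 2 calls of a gene are not independent. The remaining 7 were called in 1 depletion only by limma, so that the reverse pattern, lower without histidine and higher without tryptophan, which 9.44% of those genes showed, was not among the 30 by limma, edgeR or DESeq2. At an unadjusted p under 0.05 in limma CYP51A1 showed it. The difference between the depletions was tested directly in a fit of all 6 libraries scaled together, in which the untreated libraries add to the estimate of the spread only. There 26 of 29 tested genes were called, 18 higher and 8 lower without histidine than without tryptophan, and FADS2 had too few counts to be tested. Over the 18264 tested genes 76.7% were called, 38.7% higher and 38.0% lower. The median log2 difference of the 29 genes was 0.31, against 0.011 over all tested genes. The 4 genes of regulation and transport were all higher without histidine, as were 12 of the 18 cholesterol enzymes, while 4 of the 7 fatty acid genes tested were lower. The groups did not overlap for 27 of the 29 genes, against 88.6% of all tested genes.

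**Figure D2:**
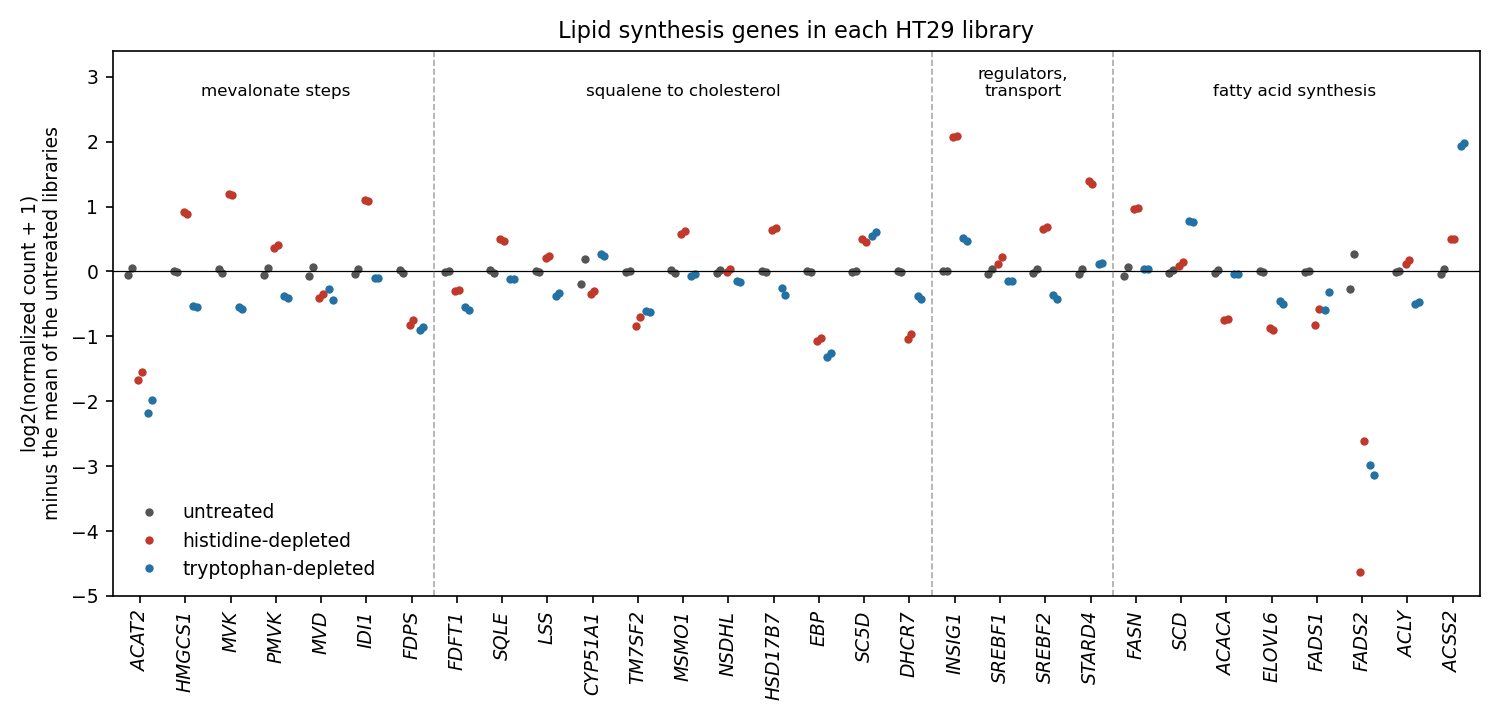
Difference of each library from the mean of the untreated libraries, on the scale log2(normalized count + 1), for the 30 genes ordered by role; each point is 1 library, with 2 per condition. The red points of INSIG1, STARD4, MVK and IDI1 lie more than 1 above the line at 0 and the blue points of all 7 mevalonate steps lie below it; the points of FADS2 rest on 0 to 3 reads after depletion.

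INSIG1 (ENSG00000186480, chr7:155297776-155310235, GRCh38) had the largest rise of the group without histidine. Its normalized counts were 2283 and 2286 in the untreated libraries, 9616 and 9665 in the histidine-depleted ones and 3247 and 3156 in the tryptophan-depleted ones. All depleted libraries lay above both untreated ones, and those without histidine lay far above those without tryptophan. The increase was 4.25-fold without histidine (log2 fold change 2.09 ± 0.0494, limma adjusted p = 2.97e-21) and 1.39-fold without tryptophan (log2 fold change 0.48 ± 0.0503, limma adjusted p = 3.55e-16). Compared directly, the histidine-depleted level was 3.01-fold the tryptophan-depleted one (log2 difference 1.59 ± 0.0401, limma adjusted p = 5.91e-16).

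STARD4 (ENSG00000164211, chr5:111496033-111512590), the gene of a small carrier that moves cholesterol between membranes, showed the second largest rise without histidine. It went from 1441 and 1523 normalized counts in untreated cells to 3891 and 3765 without histidine, and stood at 1606 and 1627 without tryptophan. The histidine-depleted libraries thus lay apart from the other 4. The increase was 2.60-fold (log2 fold change 1.38 ± 0.0554, limma adjusted p = 6.07e-17), whereas the log2 fold change without tryptophan was 0.12 and did not pass the test (limma adjusted p = 0.0532, 95% interval 0.0068 to 0.23), although it did in 6 alternatives, edgeR among them.

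SREBF2 (ENSG00000198911, chr22:41833105-41907306), the gene of the factor that governs cholesterol synthesis, had 16428 and 17154 normalized counts in untreated cells, 26545 and 26979.6 without histidine and 13058 and 12448 without tryptophan. The 3 conditions did not overlap, and untreated cells lay between the depletions. The increase without histidine was 1.60-fold (log2 fold change 0.68 ± 0.0522, limma adjusted p = 1.62e-11) and the decrease without tryptophan 1.32-fold (log2 fold change -0.40 ± 0.0477, limma adjusted p = 1.24e-13). SREBF1 (ENSG00000072310, chr17:17810399-17837002), the gene of the factor that governs fatty acid synthesis, had 8768 and 9318 normalized counts in untreated cells, 9835 and 10493 without histidine and 8193 and 8202 without tryptophan. Its differences were small, with log2 fold changes of 0.18 ± 0.0521 (limma adjusted p = 0.00362) and -0.15 ± 0.0467 (limma adjusted p = 0.00308). The first took the value -0.071 under quantile normalization and -0.012 under scaling to total reads, and both calls were lost in limma without the trend. The direct difference between the depletions was larger and was called in every alternative other than the limit on fold change (log2 difference 0.31 ± 0.0431, limma adjusted p = 4.28e-06). These counts are of mRNA only and do not measure the cleavage that activates both factors.

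The first steps of the mevalonate route moved in different directions. ACAT2 (ENSG00000120437, chr6:159762045-159779112), whose thiolase joins the first acetyl-CoA units, had the largest fall among the cholesterol enzymes in both depletions. Its normalized counts were 1517 and 1625 in untreated cells, 489.7 and 534 without histidine and 345 and 396 without tryptophan, with no overlap between conditions. It was 3.05-fold lower without histidine (log2 fold change -1.61 ± 0.0712, limma adjusted p = 4.01e-16) and 4.26-fold lower without tryptophan (log2 fold change -2.09 ± 0.0714, limma adjusted p = 2.52e-59). HMGCS1 (ENSG00000112972, chr5:43287470-43313512), the next enzyme, which makes hydroxymethylglutaryl-CoA in the cytosol, went the other way without histidine, with 6113 and 6017 normalized counts in untreated cells, 11417 and 11201 without histidine and 4177 and 4168 without tryptophan. It was 1.88-fold higher without histidine (log2 fold change 0.91 ± 0.0489, limma adjusted p = 1.78e-14) and 1.46-fold lower without tryptophan (log2 fold change -0.55 ± 0.0470, limma adjusted p = 1.97e-21). Genes on the other strand cover 37.7% of the exon bases of HMGCS1 and 22.2% of those of ACAT2. The libraries keep the strand, but the sources used here do not say whether counting used it, so reads of such partners may be included.

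MVK (ENSG00000110921, chr12:109573255-109598125), the kinase that phosphorylates mevalonate, showed the largest difference between the depletions of all cholesterol enzymes. It had 1009.9 and 969 normalized counts in untreated cells, 2267 and 2235 without histidine and 673 and 661 without tryptophan, so the conditions did not overlap. It was 2.29-fold higher without histidine (log2 fold change 1.19 ± 0.0592, limma adjusted p = 3.60e-15) and 1.49-fold lower without tryptophan (log2 fold change -0.57 ± 0.0685, limma adjusted p = 2.00e-13), and directly compared the histidine-depleted level was 3.37-fold the other (log2 difference 1.75 ± 0.0545, limma adjusted p = 7.91e-15). IDI1 (ENSG00000067064, chr10:1039152-1049119), which interconverts the isoprenoid building blocks, had 2733 and 2889 normalized counts in untreated cells, 6043 and 5929.9 without histidine and 2622 and 2613 without tryptophan. The histidine-depleted libraries were apart from the rest, while the tryptophan-depleted ones were barely under the untreated. Its increase without histidine was 2.14-fold (log2 fold change 1.10 ± 0.0517, limma adjusted p = 1.28e-15), and its log2 fold change without tryptophan was -0.11 (limma adjusted p = 0.0449), a call lost in DESeq2 and 5 other alternatives. PMVK, the kinase after MVK, had the same pattern at a smaller size, with log2 fold changes of 0.39 and -0.40 (limma adjusted p = 2.65e-06 and 1.25e-09).

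MVD, the decarboxylase that completes the building block, and FDPS, which joins these blocks into farnesyl diphosphate, were lower in both depletions. MVD had 1485 and 1627 normalized counts in untreated cells, 1175 and 1227 without histidine and 1282 and 1147 without tryptophan, and both depletions lay under the untreated libraries. Its log2 fold changes were -0.36 and -0.37 (limma adjusted p = 1.59e-05 and 2.00e-08). The direct difference was -0.014 with a 95% interval from -0.15 to 0.12 (limma adjusted p = 0.852), and its sign turned under quantile normalization. FDPS (ENSG00000160752, chr1:155308748-155320666) had 3082 and 2979.9 normalized counts in untreated cells, 1709 and 1809 without histidine and 1616 and 1673 without tryptophan. It was 1.71-fold and 1.85-fold lower (log2 fold change -0.78 ± 0.0552, limma adjusted p = 3.88e-12, and log2 fold change -0.89 ± 0.0522, limma adjusted p = 1.23e-34). The direct difference of 0.097, with a 95% interval from -0.0063 to 0.20, did not pass the test, was called without histidine-depleted replicate 1 (0.14, limma adjusted p = 0.0465) and turned sign under scaling to total reads. FDPS has 8 annotated pseudogenes, IDI1 and CYP51A1 have 3 each, HSD17B7 has 2 and SCD has 1. Reads shared with these copies may be split or lost in counting.

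From squalene onward the same opposition was seen in some steps and a shared fall in others. SQLE, the oxygenase that makes squalene epoxide, had 18608 and 17955 normalized counts in untreated cells, 25747 and 25237 without histidine and 16879 and 16768 without tryptophan. It was 1.40-fold higher without histidine (log2 fold change 0.49 ± 0.0520, limma adjusted p = 6.83e-09), and its small fall without tryptophan (log2 fold change -0.13, limma adjusted p = 0.0145) was not called when either tryptophan-depleted library was left out. HSD17B7 and MSMO1, which act together in removing methyl groups from the sterol ring, were higher without histidine. HSD17B7 had 647 and 641 normalized counts in untreated cells, 997 and 1023 without histidine and 541 and 498 without tryptophan, with log2 fold changes of 0.66 and -0.32 (limma adjusted p = 6.49e-09 and 1.49e-04). MSMO1 had 1712 and 1668, 2521 and 2599.7 and 1611 and 1650.0 normalized counts in the same order, a rise of 1.52-fold without histidine (log2 fold change 0.61 ± 0.0551, limma adjusted p = 3.82e-10), and a log2 fold change of -0.059 without tryptophan that did not pass the test (limma adjusted p = 0.345, 95% interval -0.17 to 0.051) but was called under scaling to total reads (-0.13, limma adjusted p = 0.0203). LSS, the cyclase that forms lanosterol, differed less, with log2 fold changes of 0.23 and -0.36 (limma adjusted p = 2.40e-04 and 2.06e-11). NSDHL, a dehydrogenase of the same demethylation steps, had a log2 fold change of 0.024 without histidine that was not called, turned sign with the scaling and was called lower under scaling to total reads (-0.17, limma adjusted p = 0.00172), and one of -0.16 without tryptophan (limma adjusted p = 0.00189).

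EBP (ENSG00000147155, chrX:48521799-48528716), the isomerase that shifts a double bond of the sterol ring, was lower in both depletions. It had 1092 and 1088 normalized counts in untreated cells, 519.5 and 536 without histidine and 438 and 453 without tryptophan, with no overlap. The falls were 2.05-fold (log2 fold change -1.04 ± 0.0712, limma adjusted p = 2.08e-12) and 2.46-fold (log2 fold change -1.30 ± 0.0724, limma adjusted p = 1.15e-36). A further annotated gene on its strand overlaps 36.4% of the exon bases and had 0 to 2 reads in any library. How reads on shared bases were counted is not given, so this does not show whether EBP lost reads. DHCR7 (ENSG00000172893, chr11:71428193-71452868), the reductase of the last step to cholesterol, fell more without histidine than without tryptophan. Its normalized counts were 9907 and 9884 in untreated cells, 4786 and 5086 without histidine and 7597 and 7390.3 without tryptophan. The fall was 1.99-fold without histidine (log2 fold change -0.99 ± 0.0501, limma adjusted p = 4.73e-15) and 1.33-fold without tryptophan (log2 fold change -0.41 ± 0.0464, limma adjusted p = 1.96e-14), and the direct log2 difference was -0.60 ± 0.0409 (limma adjusted p = 3.27e-10). TM7SF2, a sterol reductase, and FDFT1, which makes squalene, were also lower in both. TM7SF2 had log2 fold changes of -0.76 without histidine and -0.62 without tryptophan (limma adjusted p = 6.57e-11 and 2.29e-19), and FDFT1 of -0.29 and -0.58 (limma adjusted p = 1.29e-05 and 2.22e-23).

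SC5D (ENSG00000109929, chr11:121292681-121313410), a desaturase that acts just before DHCR7, was the cholesterol enzyme with higher counts in both depletions. It had 3222 and 3261 normalized counts in untreated cells, 4569 and 4453 without histidine and 4755 and 4946 without tryptophan. Its log2 fold changes were 0.49 and 0.57 (limma adjusted p = 5.05e-09 and 3.70e-22), and the direct difference of -0.10 (limma adjusted p = 0.0296) lost its call in 6 alternatives. CYP51A1, the demethylase of lanosterol, had few reads, 154 and 222 in untreated cells, 168 and 153 without histidine and 218 and 249 without tryptophan. On the normalized scale its untreated values, 168 and 221, spanned most of the range between the depletions. The log2 fold change of -0.32 without histidine passed the threshold narrowly (limma adjusted p = 0.0438) and was lost in DESeq2 and in 6 other alternatives, among them 3 that left out a library. Other annotated genes on the same strand share 68.2% of its exon bases. How reads on shared bases were counted is not given in the sources used here, and their part in its low count was not tested.

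**Figure D3:**
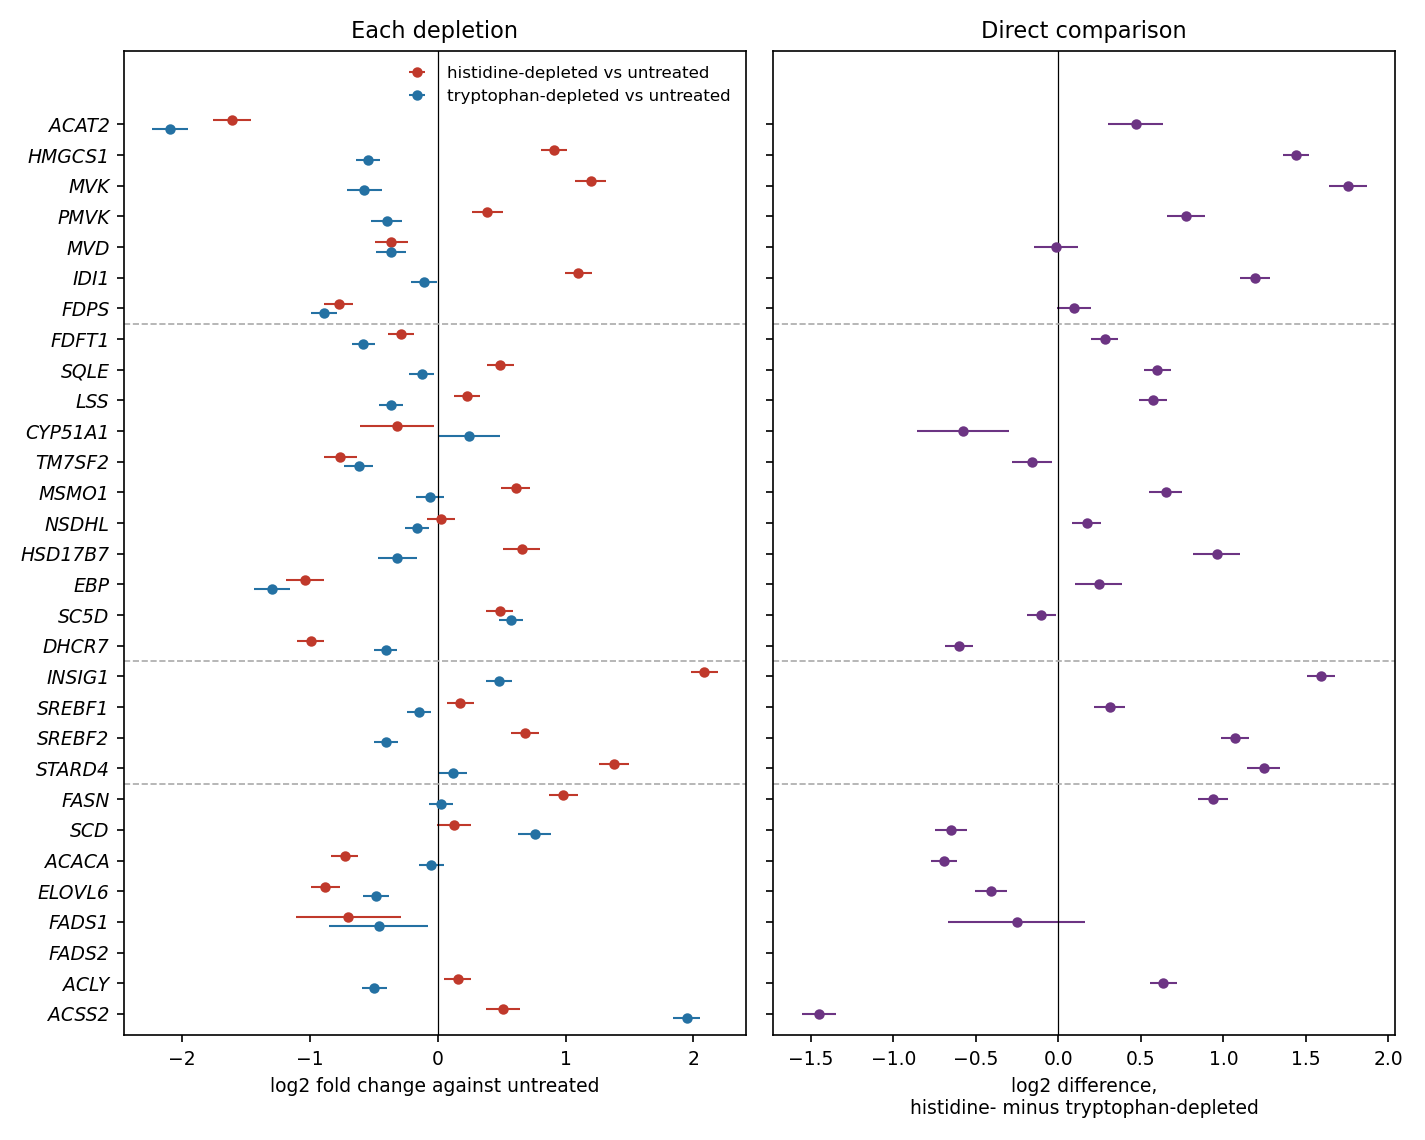
Log2 fold change of each gene against untreated cells (left; red without histidine, blue without tryptophan) and log2 difference between the depletions (right), from limma, with 95% intervals; dashed lines part the 4 roles, and FADS2 is not drawn because of its few reads. HMGCS1, MVK, IDI1 and SREBF2 lie on opposite sides of 0 in the left panel and above 1 in the right one; the red points of SREBF1, ACLY, SCD and NSDHL, near 0, and the blue point of FASN change side with the scaling.

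Among the fatty acid genes, those that supply or extend acetyl-CoA did not move together. ACSS2 (ENSG00000131069, chr20:34872146-34927962), the synthetase that turns acetate into acetyl-CoA, had the largest rise of the group without tryptophan. Its normalized counts were 954 and 1011 in untreated cells, 1388 and 1395 without histidine and 3756 and 3859.5 without tryptophan, without overlap. It was 1.43-fold higher without histidine (log2 fold change 0.51 ± 0.0637, limma adjusted p = 9.79e-08) and 3.85-fold higher without tryptophan (log2 fold change 1.95 ± 0.0538, limma adjusted p = 3.51e-70), and the direct log2 difference was -1.45 ± 0.0496 (limma adjusted p = 2.73e-14). ACLY, which makes acetyl-CoA from citrate, had 19406 and 19589 normalized counts in untreated cells, 21146 and 22005 without histidine and 13742 and 14058 without tryptophan. It was 1.41-fold lower without tryptophan (log2 fold change -0.50 ± 0.0480, limma adjusted p = 3.59e-18), while its log2 fold change of 0.15 without histidine (limma adjusted p = 0.00912) became -0.080, then called lower, under quantile normalization (limma adjusted p = 0.0474) and -0.035 under scaling to total reads. The 2 genes that supply acetyl-CoA thus moved in opposite directions without tryptophan.

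ACACA and FASN, whose enzymes make malonyl-CoA and build palmitate from it, parted without histidine. ACACA (ENSG00000278540, chr17:37084992-37406836) had 20411 and 21217 normalized counts in untreated cells, 12446 and 12528 without histidine and 20274 and 20136 without tryptophan. The histidine-depleted libraries were far apart from the rest, 1.66-fold lower (log2 fold change -0.73 ± 0.0507, limma adjusted p = 2.70e-12). The tryptophan-depleted libraries lay just under both untreated ones. Their log2 fold change was -0.050 (limma adjusted p = 0.364, 95% interval -0.15 to 0.047). It was called lower under quantile normalization (-0.099) and under scaling to total reads (-0.12), and was -0.078 without untreated replicate 1. FASN (ENSG00000169710, chr17:82078338-82098294) had 12453 and 13589.6 normalized counts in untreated cells, 25411 and 25649 without histidine and 13305 and 13334 without tryptophan. The histidine-depleted libraries were again apart, here 1.97-fold higher (log2 fold change 0.98 ± 0.0540, limma adjusted p = 2.72e-14). Without tryptophan its log2 fold change was 0.027 (limma adjusted p = 0.630, 95% interval -0.068 to 0.12), with a sign that turned with the scaling and without untreated replicate 1, and a call (0.090) without untreated replicate 2.

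SCD (ENSG00000099194, chr10:100347233-100364826), the most abundant of the group, had 73178 and 75405 normalized counts in untreated cells, 78822 and 82255 without histidine and 127210.3 and 125628 without tryptophan. The tryptophan-depleted libraries lay well above the other 4. The increase without tryptophan was 1.69-fold (log2 fold change 0.76 ± 0.0649, limma adjusted p = 1.30e-21). Without histidine the log2 fold change of 0.13 was not called (limma adjusted p = 0.0763), but it was in 6 alternatives, and under quantile normalization and scaling to total reads its sign turned. ELOVL6, which lengthens palmitate, had 2913 and 2902, 1593 and 1548 and 2113 and 2060.2 normalized counts in untreated, histidine-depleted and tryptophan-depleted libraries. It was 1.84-fold lower without histidine (log2 fold change -0.88 ± 0.0548, limma adjusted p = 3.06e-13) and 1.40-fold lower without tryptophan (log2 fold change -0.49 ± 0.0511, limma adjusted p = 3.73e-16).

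The desaturases of polyunsaturated fatty acids had few reads, FADS2 fewest. FADS1 had 77 and 85 reads in untreated cells, 52 and 55 without histidine and 52 and 74 without tryptophan. Its log2 fold changes were -0.70 and -0.46 (limma adjusted p = 0.00266 and 0.0296), of which the second was lost in DESeq2, with no filter on low values and when any of the 4 libraries compared, other than tryptophan-depleted replicate 2, was left out. FADS2 had 18 and 29 reads in untreated cells, 0 and 3 without histidine and 2 and 2 without tryptophan, and its depleted libraries lay under both untreated ones. Over both libraries of a group and allowing for size factors, its level without histidine was 0.0587 of the untreated one (95% exact interval 0.0117 to 0.182, counting error only), and without tryptophan 0.0805 (0.0211 to 0.220). It was called lower by limma in both comparisons, but it passed the filter on low values only through its untreated reads. These calls are therefore no test of its change.

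Promoter sequences were looked at because genes of this group are known to share binding sites for SREBPs and for the factors NF-Y and Sp1 that act beside them. RefSeq windows on GRCh38.p14, from 250 bases before to 50 after each start, were at hand for 26 of the 30 genes. FASN, FDFT1, SQLE and ACAT2 had no window and were not searched. On either strand, TCACNCCAC, a form of the sterol regulatory element, was found in 1 of the 26 genes (3.85%), SREBF2, against 1.39% of 27305 genes with a window. CCAAT, the core bound by NF-Y, was found in 21 (80.8%) against 39.7%, and GGGCGG, the core bound by Sp1, in 25 (96.2%) against 48.3%. Some genes have several windows. By window, CCAAT was in 25 of the 36 windows of these genes against 34.6% of all windows, and GGGCGG in 32 of 36 against 45.0%. The genes compared with were not limited to those expressed in HT29, so whether these shares are particular to lipid genes was not tested. CCAAT was in genes that rose and in genes that fell without histidine alike. The following stretches of 30 bases, in the direction of transcription with the motif in capitals (ATTGG is CCAAT on the other strand), are the sterol element of SREBF2 and the CCAAT nearest to the start in the 5 most raised and 5 most lowered genes without histidine among those holding a CCAAT, FADS2 aside because of its few reads.
SREBF2 (sterol element), chr22:41832962-41832991, plus strand: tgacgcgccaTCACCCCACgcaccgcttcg
INSIG1, chr7:155297696-155297725, plus strand: cgccggcctcccATTGGttgcggccgcctc
STARD4, chr5:111512648-111512677, minus strand: ctcccgcgccagCCAATccgaacaagcgca
MVK, chr12:109573736-109573765, plus strand: tcgcgcgctctgATTGGctggcctgaagta
IDI1, chr10:1048956-1048985, minus strand: ctggcgcgagcgATTGGctgcgcggcccgg
HMGCS1, chr5:43313495-43313524, minus strand: ctaccggccgcgATTGGctgtgggagccac
EBP, chrX:48521766-48521795, plus strand: cttcgcttcaccATTGGctcgctccgtaag
DHCR7, chr11:71448424-71448453, minus strand: ggtccgcctccgATTGGcaggcaatcgctg
FDPS, chr1:155308803-155308832, plus strand: tcccgcgggcacATTGGgagttgtagtcta
TM7SF2, chr11:65111786-65111815, plus strand: ccccgagcgccgATTGGctggtgtgctggg
ACACA, chr17:37299886-37299915, minus strand: ttatttgttttgATTGGatctcagaaatta
In INSIG1 the motif begins 170 bases before the start site, in STARD4 130, in MVK 46, in IDI1 87 and in HMGCS1 100. In the lowered genes it begins 30 bases before the start in EBP, 48 in DHCR7, 51 in FDPS, 74 in TM7SF2 and 136 in ACACA. In SREBF2 the sterol element begins 133 bases before the start and a CCAAT on the other strand 106. Start sites are those of RefSeq, and for the genes shown other than SREBF2 they lie inside the gene as GENCODE draws it, by 9 bases in EBP to 539 in MVK, 4475 in DHCR7 and 107069 in ACACA. A match describes the letters only and does not show that a factor binds there.

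Other genes of lipid metabolism were counted from 7 lists drawn up for this purpose, each with its median log2 fold change, to be read beside the shares and medians of all tested genes above. Without histidine, 10 of 17 other sterol and isoprenoid genes tested were higher and 6 lower (median 0.27), and among these LBR, a sterol reductase with the same activity as TM7SF2, fell from 10549.7 and 10813 to 4566 and 4613 normalized counts (log2 fold change -1.21). ICMT, which methylates isoprenylated proteins, had a log2 fold change of -1.45 and FNTA, a subunit of the prenyl transferases, of 1.07. Of 14 genes that process SREBPs or degrade sterol enzymes 5 were higher and 5 lower (median 0.016). SPRING1, needed for SREBP activation in the Golgi, rose from 5863 and 5870.3 to 15467 and 15229.7 normalized counts (2.63-fold, limma adjusted p = 4.19e-18), with the protease gene MBTPS2 at a log2 fold change of 0.47, while INSIG2, the paralog of INSIG1, was at -0.62. INSIG1 and INSIG2 therefore moved in opposite directions.

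Of 18 genes of cholesterol uptake, transport and storage 9 were higher and 5 lower without histidine (median 0.042). LRP8, a lipoprotein receptor, fell 8.75-fold from 7354 and 6883 to 779 and 836 normalized counts, and TMEM97, a sterol-regulated membrane protein, 5.57-fold from 4592 and 4910.5 to 819 and 874. NCEH1, a hydrolase of cholesteryl esters, rose 5.88-fold from 2507 and 2484 to 14956 and 14211, and GRAMD1B, a sterol carrier at membrane contacts, had a log2 fold change of -1.58. Of 9 tested genes of the sterol-sensing receptors LXR and of sterol efflux 5 were higher and 2 lower (median 0.44), with the 2 receptors themselves apart, NR1H3 at a log2 fold change of -2.53 and NR1H2 at 1.26. ABCG2 was at -1.81 and MYLIP, which degrades lipoprotein receptors, at 1.23.

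On the fatty acid side without histidine, 8 of 20 other genes of synthesis and activation were higher and 6 lower (median 0.10), among them ACSL4, which activates polyunsaturated fatty acids, at 1.54, the citrate carrier gene SLC25A1 at -1.40, SCD5 at -1.65 and HACD3 at -1.13 on the log2 scale. Of 19 genes of triglycerides and lipid droplets 7 were higher and 9 lower (median -0.076), with PLIN3, ABHD5 and LPIN1 at log2 fold changes of 1.77, 1.76 and 1.52 and MOGAT3 at -2.75. Of 22 genes of fatty acid oxidation 7 were higher and 13 lower (median -0.51). HADH, CPT2 and EHHADH were at log2 fold changes of -2.37, -2.09 and -1.98.

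Without tryptophan, 7 of 16 other sterol and isoprenoid genes tested were higher and 9 lower (median -0.33), with FAXDC2 at a log2 fold change of 2.10, PDSS1 and COQ2 of ubiquinone synthesis at -1.67 and -1.48, and LBR at -1.23. Of 14 SREBP processing genes 9 were higher and 3 lower (median 0.21), with MBTPS2 at a log2 fold change of 0.49, ERLIN2 at 0.48 and UBXN8 at -1.05. Of 18 uptake and transport genes 9 were higher and 7 lower (median 0.17). TMEM97 fell to 931 and 875 normalized counts, close to its level without histidine, VLDLR rose from 363 and 364 to 1278 and 1342, and NPC1, which exports cholesterol from lysosomes, and LRP8 were at log2 fold changes of 1.06 and -0.92. NPC1 stood higher still without histidine, at 7381 and 7157 normalized counts, against 5591 and 5554 without tryptophan.

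Of 9 LXR and efflux genes 6 were higher and 2 lower without tryptophan (median 0.48). ABCA1, which passes cholesterol to apolipoproteins, rose from 659 and 669 to 1904 and 1971 normalized counts (2.90-fold, limma adjusted p = 1.85e-51) and ABCG1 from 1470.1 and 1487 to 4277 and 4159 (2.84-fold, limma adjusted p = 1.06e-59). CYP27A1 was at a log2 fold change of 1.27 and ABCG2 at -1.18. Of 20 other fatty acid genes 12 were higher and 8 lower (median 0.32), with ME1, which supplies NADPH, at 1.60, FADS3 at 1.67, TECR at -1.12 and SCD5, a relative of SCD, at -1.85, against the rise of SCD. Of 20 triglyceride and droplet genes 13 were higher and 7 lower (median 0.33), with the droplet genes PLIN4 and CIDEC at 2.38 and 1.51, GPAT3 at 1.42, and PLIN3 at -0.93, the reverse of its rise without histidine. Of 22 oxidation genes 9 were higher and 10 lower (median 0.0073), with PDK4 at 1.98, HADH at -1.45 and DECR1 at -1.33. Every gene named from these 7 lists passed the test for the depletion it is named under.

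**Figure D4:**
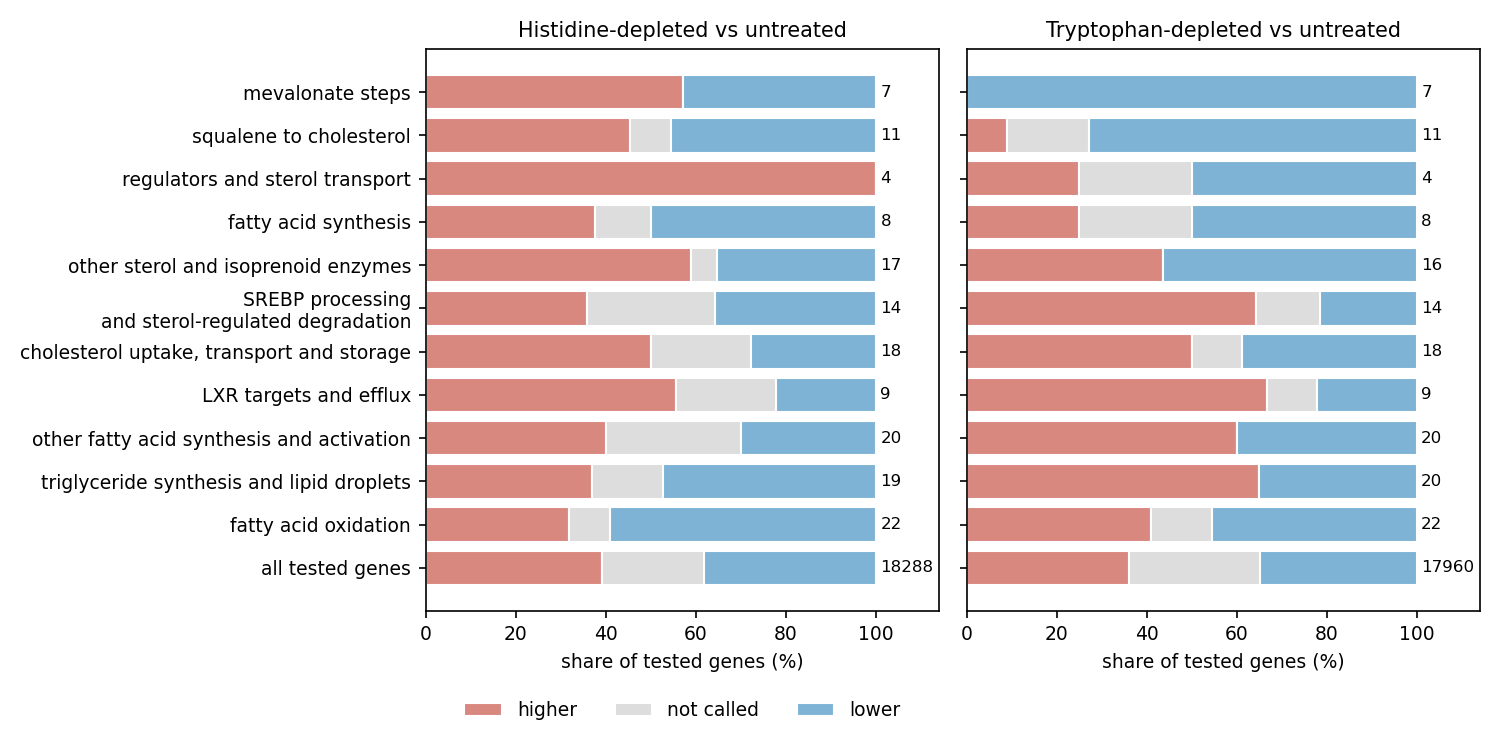
Share of tested genes called higher (red), lower (blue) or not called (grey) against untreated cells, for the 4 roles of the 30 genes, for 7 further lists of lipid metabolism and for all tested genes; the number at the end of each bar is the number of genes tested. Without tryptophan the bar of the mevalonate steps is blue throughout (7 of 7), and without histidine that of the regulators is red throughout (4 of 4, with SREBF1 changing side under other scalings).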

How the data were processed

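RNA of HT29 cells kept for 48 h untreated, without histidine or without tryptophan was sequenced in 2 libraries per condition. The authors used STAR 2.7.10a and GRCh38 for alignment, htseq-count 2.0.5 for counting on exons and DESeq2 for normalization. They deposited 2 tables of normalized counts (a non-negative signal), and the untreated libraries stand in both. The handling of molecular identifiers, strand and overlapping genes is not given in the sources used here.

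Every value was a whole multiple of its library's step (100% within a tolerance of 0.001), which gave back 46390819 to 64388876 reads per library. Each depletion was tested inside its own table with limma 3.58.1 under R 4.3.3, with the trend on and two-sided, on log2(normalized count + 1). Genes under a mean of 10 were left out, p-values were adjusted by Benjamini-Hochberg over all tested genes, and the threshold was 0.05. Changes of low genes are understated on this scale. To compare the depletions, reads of all 6 libraries were scaled by joint median-of-ratios size factors. Exon length, overlaps and coordinates came from GENCODE release 44, and promoters from RefSeq for GRCh38.p14. FADS2 is given as a ratio of reads with an exact 95% interval, which covers counting error only.

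All 30 genes are named. Of each further list up to 4 genes per depletion are named, those with the largest absolute log2 fold change past the threshold and a mean of at least 100 in the higher group. Some genes that this rule picks are not reported here by name, but the counts and medians of the lists include them. The genes and the lists were chosen with earlier results of these data known. Alternatives changed the pseudocount to 0.5 or 8, dropped the filter or raised it to 50, left out the trend, used quantile normalization, ran edgeR 4.0.16 (TMM) or DESeq2 1.42.0 on recovered reads, added a replicate block, took other sets of libraries into the fit, asked for an absolute log2 fold change of 1, or left out each library in turn. Scaling to total reads and a block with crossed numbers were added after seeing the data. The code was tested on simulated counts. Tables were handled with numpy 2.4.6 and pandas 2.3.3 and plots drawn with matplotlib 3.10.9, all under Python 3.11.15. Protein sequences were not used here.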

Additional observations from a re-analysis of the deposited data

Results flagged for a closer look

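In 10 of the 30 genes the depletions went in opposite directions against the same untreated libraries, higher without histidine and lower without tryptophan, a pattern that 8.55% of the 17470 genes tested in both comparisons showed. A direct difference above 0 follows from that choice of genes, so its values are a description. The log2 differences, histidine-depleted minus tryptophan-depleted, were 1.75 for MVK, 1.44 for HMGCS1, 1.19 for IDI1, 1.07 for SREBF2, 0.96 for HSD17B7, 0.77 for PMVK, 0.63 for ACLY, 0.60 for SQLE, 0.57 for LSS and 0.31 for SREBF1. Both calls held in every alternative run, other than the limit on fold change, for 5 of the 10 (HMGCS1, MVK, PMVK, HSD17B7 and SREBF2). The rises of SREBF1 and ACLY without histidine turn sign under quantile normalization and under scaling to total reads, that of LSS is not called under either, and the falls of IDI1, SQLE and SREBF1 without tryptophan lost their calls in some alternatives. The histidine-free medium had an RPMI base and the tryptophan-free medium a DMEM F-12 base, and the amino acid and the base medium cannot be told apart.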

How the results depend on the processing

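Apart from the limit on fold change, 23 of the 28 calls without histidine held in all 15 alternatives, 19 of the 25 without tryptophan in all 15, and 23 of the 26 between the depletions in all 18. FADS2 was tested in 14 alternatives, since its mean is under the stricter minimum of 50. It entered each of them only through its untreated reads, so its calls there say nothing about stability. Lost in some were LSS, CYP51A1, SREBF1 and ACLY without histidine, IDI1, SQLE, NSDHL, SREBF1 and FADS1 without tryptophan, and TM7SF2, NSDHL and SC5D between the depletions. Few reads limit what can be said of CYP51A1, FADS1 and FADS2. Where 1 library is left out, its condition rests on a lone library that is assumed to vary like the other groups.

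The limit of 1 on the absolute log2 fold change left 4 higher and 3 lower of the 30 genes without histidine (3002 and 2947 of all tested genes). It left 1 and 3 without tryptophan (1801 and 1873), and 6 and 1 between the depletions (2914 and 2880). FADS2, admitted by its untreated reads alone, is among the 3 lower genes of both comparisons with untreated cells. Under quantile normalization the median log2 fold change of the 30 genes was -0.058 without histidine, -0.32 without tryptophan and 0.36 between the depletions, and under scaling to total reads, chosen after seeing the data, -0.023, -0.44 and 0.21. Without histidine the median of all tested genes moved from 0.010 to -0.016 and -0.18 under these scalings, so that of the 30 genes lay below it under quantile normalization and above it under total reads. Signs turned under quantile normalization and total reads, in this order, for NSDHL (-0.079 and -0.17), SREBF1 (-0.071 and -0.012), SCD (-0.045 and -0.064) and ACLY (-0.080 and -0.035) without histidine and for FASN (-0.067 and -0.045) without tryptophan. Between the depletions MVD turned under quantile normalization (0.030) and FDPS under total reads (-0.0050). The cause was not tested beyond the change of scaling itself.

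With each library left out in turn, 14 to 17 of the genes were higher and 11 to 12 lower without histidine (median 0.13 to 0.20; all tested genes 6562 to 7117 and 6496 to 6743), 4 to 7 and 16 to 21 without tryptophan (median -0.38 to -0.33; 5462 to 6542 and 5442 to 6249), and 18 to 19 and 6 to 8 between the depletions (median 0.28 to 0.36; 6557 to 7166 and 6357 to 7039). The 7 came without untreated replicate 2. The log2 fold change ranged from -0.0016 to 0.050 for NSDHL without histidine and from -0.037 to 0.090 for FASN without tryptophan, and the difference of MVD from -0.094 to 0.066.

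The labels do not say whether the replicate numbers pair the samples. The replicate differences of 2 conditions correlated at 0.112 (untreated and histidine-depleted), -0.0534 (untreated and tryptophan-depleted) and -0.104 (both depletions). Such weak correlations cannot show whether samples were paired. With the replicate number as a block, 17 genes were higher and 12 lower without histidine (all tested genes 40.0% and 38.9%), 5 and 21 without tryptophan (36.2% and 34.9%) and 18 and 8 between the depletions (38.8% and 38.2%). With crossed numbers, added after seeing the data, the last counts were again 18 and 8 (39.2% and 38.5%). In the order of the comparisons above, edgeR gave 17 and 12 (39.2% and 38.9%), 5 and 21 (36.1% and 35.4%), and 18 and 8 (38.6% and 39.4%), and DESeq2 17 and 11 (34.6% and 33.7%), 4 and 19 (30.2% and 29.8%), and 18 and 6 (35.3% and 34.0%). The percentages are of all tested genes.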
